A study of Ovis aries with 9 samples.

Results

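Nuclear genes of oxidative phosphorylation were examined in ovary RNA-Seq libraries of sheep. They were the rows of the count table whose symbol starts with NDUFA, NDUFB, NDUFC, NDUFS or NDUFV followed by a number (complex I), is SDHA, SDHB, SDHC or SDHD (complex II), starts with UQCR (complex III), starts with COX followed by a number from 4 to 8 (complex IV), or starts with ATP5 (complex V). Of 27174 rows, 62 met this rule, with 42 in complex I, 4 in complex II, 1 in complex III, 1 in complex IV and 14 in complex V. After the filter on low counts 58 of them could be tested, among 16871 tested rows. The 4 that could not be tested were NDUFC1.1, NDUFB2.1, NDUFS6 and NDUFS1, all of complex I, with 0 to 12 reads in a library, and the rows NDUFS1.1 and NDUFS6.1 were tested for the last pair. Complex III stood on UQCRH alone and complex IV on COX5A alone, so these complexes are described by 1 gene each and their other subunits were not analysed here.

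Oxidative phosphorylation is carried out in the inner mitochondrial membrane. Complexes I and II pass electrons from NADH and succinate to ubiquinone, complex III passes them on to cytochrome c and complex IV to oxygen, and complex V, the ATP synthase, uses the proton gradient built by complexes I, III and IV to make ATP. The subunits are encoded partly in the nucleus and partly in the mitochondrial genome, and in the ovary the mitochondria also hold the first step of steroid synthesis.

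The libraries came from whole ovaries of 9 adult ewes, each sequenced once. Dorset sheep gave 3 of them (D4, D5 and D6). Sheep of the Small Tail Han breed homozygous for the FecB mutation of BMPR1B gave 3 (Han BB, with W1, W2 and W4), and 3 came from Small Tail Han sheep without the mutation (Han ++, with W6, W7 and W8). All of them had received progestagen sponges and pregnant mare serum gonadotropin to synchronize estrus, and were killed after the following spontaneous estrus. The Dorset ewes, a breed of low fecundity, were the controls. The labels used here give their breed and no FecB genotype, and the paper describes FecB typing of the Han ewes. Breed separates both Han groups from Dorset, and the genotype separates Han BB from Han ++. If the Dorset ewes lacked the mutation, the genotype also separates Han BB from Dorset. In whole ovary, fewer cells of a type and less RNA per cell cannot be told apart.

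The libraries held 10803913 to 20992535 counted reads, of which 0.376% to 0.559% fell on the members. Libraries D6 and W4 stood apart from the other 7 although they belong to different groups, with a Spearman correlation of 0.978 between them over the tested rows. In these libraries the mitochondrial gene ND6 took 7.73% and 4.20% of the mitochondrially encoded reads, against 0.247% to 1.56% in the others. Markers of granulosa, theca, luteal and smooth muscle cells were read in every library, as were OVGP1 and other markers of the oviduct. Because of D6 and W4, the group comparisons are given with and without them.

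Levels are given as CPM, the reads of a gene scaled to a common library size with TMM factors, and are compared between libraries for 1 gene at a time. To set genes side by side, each gene's log2 CPM (prior count 0.5) was taken relative to its own median over the 9 libraries. This value is called the deviation below.

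The members varied among the animals of a group to a different degree in the 3 groups. Over the 58 members, the median range from the lowest to the highest library was 1.27 on the log2 scale, against 1.54 over all tested rows. The median range among the 3 animals was 1.12 in Dorset and 0.89 in Han BB, and it was 0.35 in Han ++. The means of the 3 groups, each over 3 animals and so less variable than single animals, spanned a median of 0.36. The Han ++ animals had the narrowest range of the 3 groups for 49 of 58 members (84.5%), compared with 60.3% of all tested rows. NDUFV2, an iron-sulfur subunit of complex I, varied least, by 1.28-fold over the 9 libraries, and NDUFA3, an accessory subunit of complex I, varied most, by 28.9-fold.

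**Figure D1:**
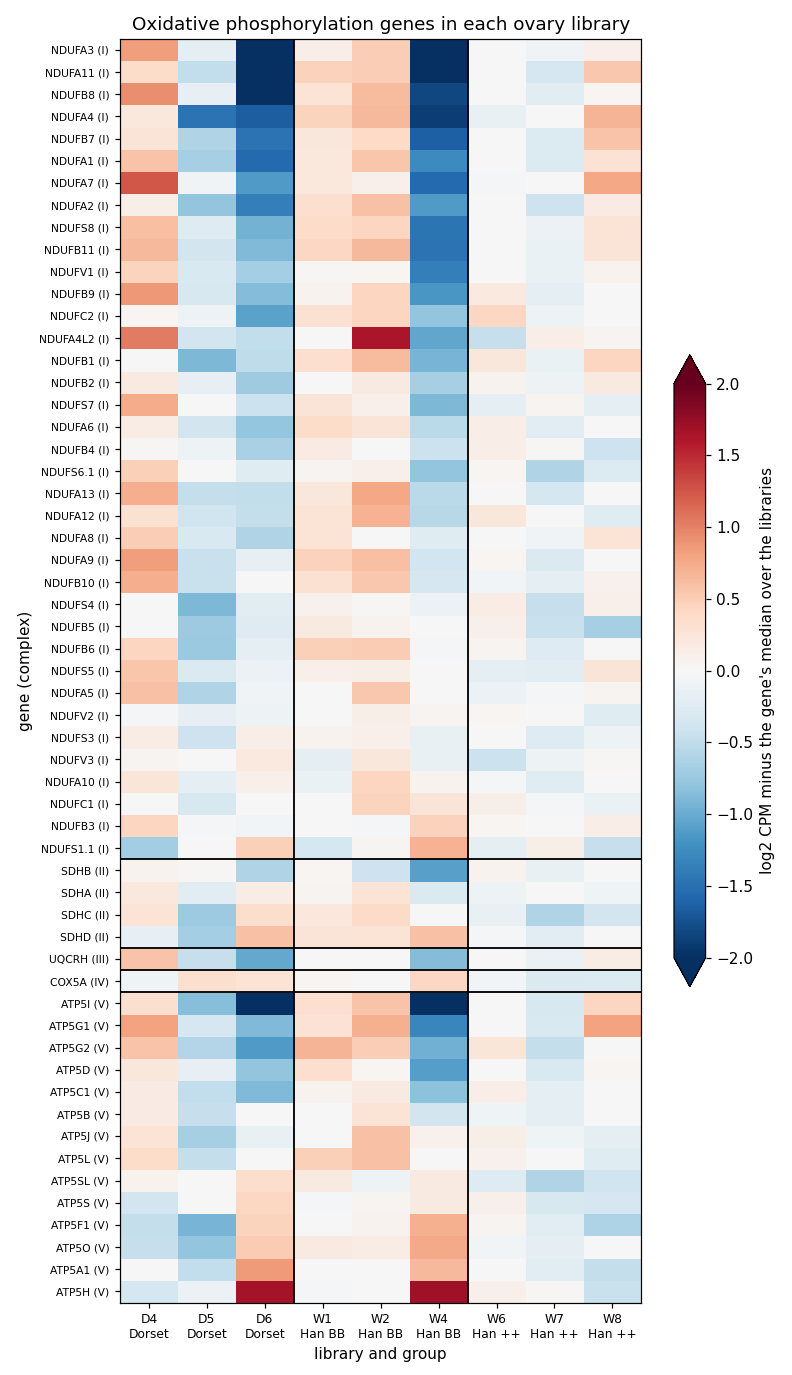
Heat map of the tested members reported by name (rows, grouped by complex) in the 9 libraries (columns, grouped by breed and genotype). The colour is the log2 CPM of a gene minus its median over the libraries, with values beyond 2 drawn in the end colours. Libraries D6 and W4 are blue for most of complex I and red for ATP5H, ATP5A1, ATP5O and ATP5F1.

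In complex I, the core subunits of the arm that reaches into the matrix carry the flavin and the iron-sulfur clusters. NDUFV1, which binds NADH and the flavin, measured 57.7, 33.9 and 26.2 CPM in D4, D5 and D6, 42.6, 43.0 and 15.9 CPM in W1, W2 and W4, and 42.0, 38.1 and 43.9 CPM in W6, W7 and W8. It was lowest in W4 and D6, and the 3 groups overlapped. NDUFS1.1, the row of the large iron-sulfur subunit, measured 39.0, 63.2 and 88.4 CPM in the Dorset animals, 49.7, 66.0 and 103 CPM in the Han BB animals and 55.2, 68.9 and 45.8 CPM in the Han ++ animals. Here D6 and W4 were the highest libraries, and the ratio of NDUFS1.1 to NDUFV1 was 3.37 in D6 and 6.48 in W4, against 0.676 to 1.86 in the other 7.

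NDUFS7, an iron-sulfur subunit near the ubiquinone site, measured 25.9, 15.2 and 11.2 CPM in the Dorset animals, 18.2, 16.4 and 7.96 CPM in the Han BB animals and 13.4, 15.8 and 13.4 CPM in the Han ++ animals, with overlap between all groups and the lowest values in W4 and D6. NDUFV2 measured 118, 109 and 113 CPM in Dorset, 123, 132 and 127 CPM in Han BB and 125, 122 and 103 CPM in Han ++. All 3 Han BB animals lay above all 3 Dorset animals, by a log2 fold change of 0.17 with a standard error (SE) of 0.23. NDUFS8, another iron-sulfur subunit, was lowest in W4 (8.96 CPM) and D6 (13.0 CPM), and NDUFS3 ranged from 21.1 to 31.3 CPM over all 9 libraries.

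The accessory NDUFA and NDUFB subunits surround this core and the membrane arm. NDUFA3 measured 46.4, 22.7 and 3.30 CPM in the Dorset animals, 28.3, 36.4 and 1.61 CPM in the Han BB animals and 25.7, 24.5 and 27.5 CPM in the Han ++ animals. Libraries of different groups, D6 and W4, were thus far below the rest, and its mean in Dorset was 24.1 ± 21.6 CPM (SD, n = 3). NDUFA11 (a membrane-arm subunit, chosen after its values were seen, as was NDUFB8 below) measured 41.7, 22.8 and 5.25 CPM in Dorset, 44.8, 45.8 and 5.42 CPM in Han BB and 32.3, 25.6 and 47.3 CPM in Han ++. NDUFB8 measured 240, 112 and 31.0 CPM, 154, 196 and 35.5 CPM, and 126, 108 and 130 CPM in these groups. For both genes D6 and W4 were again the lowest, and no pair of groups was separated.

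The distance of D6 and W4 from the other libraries was not shared by all accessory subunits. Of the 12 tested NDUFA subunits, leaving out NDUFA4 and NDUFA4L2, 8 had both libraries below the other 7, and so had 6 of the 11 NDUFB subunits. NDUFA10 ranged only from 40.4 to 64.7 CPM and NDUFB3 from 20.0 to 28.8 CPM over the 9 libraries. NDUFA13, which is also known as GRIM-19, measured 148, 64.0 and 63.4 CPM in Dorset, 105, 153 and 61.1 CPM in Han BB and 89.9, 69.8 and 89.0 CPM in Han ++. D5, D6 and W4 were close to each other and below the rest. NDUFB11 measured 69.5, 34.2 and 23.7 CPM, 59.2, 69.6 and 15.6 CPM, and 44.3, 40.5 and 53.1 CPM in the same groups, which overlapped.

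Members with the largest or smallest group differences were also found among these accessory subunits. NDUFA2 measured 42.6, 22.4 and 15.0 CPM in Dorset, 49.3, 58.9 and 17.6 CPM in Han BB and 39.2, 29.4 and 44.0 CPM in Han ++. NDUFB1 measured 7.10, 3.56 and 4.86 CPM, 9.07, 11.3 and 3.48 CPM, and 8.44, 6.47 and 9.76 CPM. NDUFA7 measured 17.4, 6.76 and 2.96 CPM, 8.31, 7.64 and 2.07 CPM, and 7.01, 7.10 and 12.4 CPM. None of the 3 separated any pair of groups. W4 held the lowest value of NDUFB1 and NDUFA7, and D6 the lowest of NDUFA2. Among the other accessory subunits, NDUFS4, NDUFS5, NDUFS6.1, NDUFV3, NDUFC1 and NDUFC2, NDUFC2 was the member for which D6 and W4 both lay below the rest, at 9.94 and 12.2 CPM against 19.9 to 29.0 CPM.

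**Figure D2:**
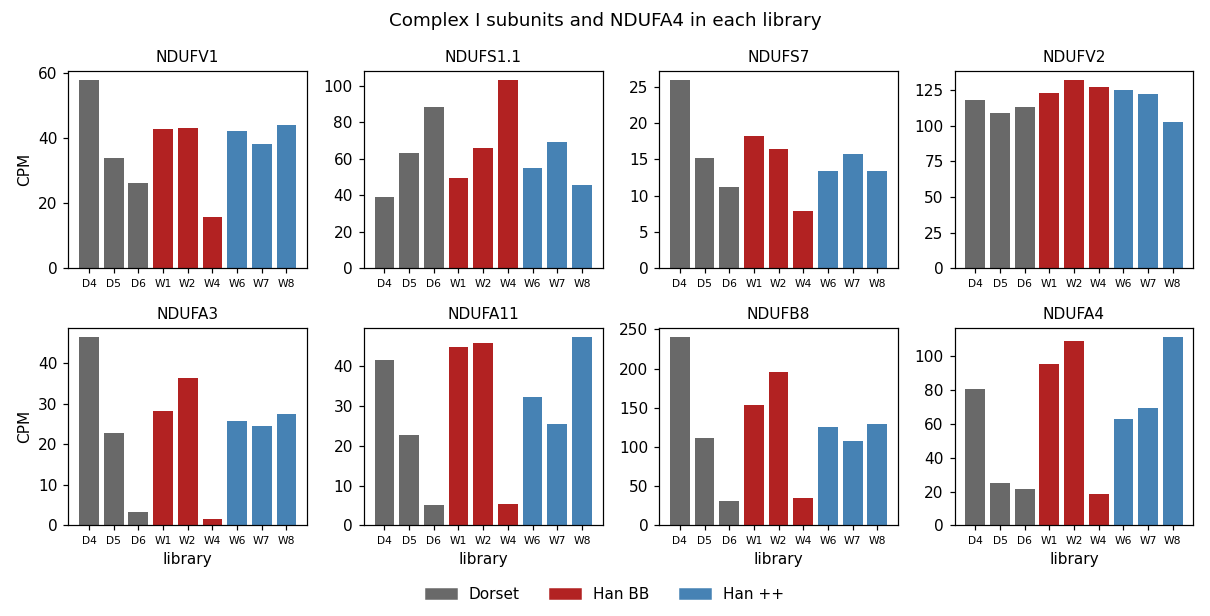
Bars give the CPM of 7 complex I subunits and NDUFA4 in each of the 9 libraries, on linear axes that start at 0 and differ between genes, with 1 bar per ewe and so no error bar. NDUFA3, NDUFA11, NDUFB8 and NDUFA4 were lowest in D6 and W4, NDUFS1.1 was highest there, and NDUFV2 was nearly even.

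NDUFA4 and its paralog NDUFA4L2 match the rule by name, although NDUFA4 is known to belong to complex IV and NDUFA4L2 is known as a hypoxia-inducible gene. NDUFA4 measured 80.4, 24.8 and 21.8 CPM in the Dorset animals, 95.1, 109 and 18.4 CPM in the Han BB animals and 62.7, 69.5 and 111 CPM in the Han ++ animals. It had the largest log2 fold change of all members against Dorset, 0.81 (SE 0.64) for Han BB and 0.94 (SE 0.64) for Han ++, with D4 as high as the Han animals and W4 as low as D5 and D6. NDUFA4L2 measured 14.6, 5.18 and 4.69 CPM, 6.83, 22.2 and 3.08 CPM, and 4.82, 7.55 and 7.09 CPM. Its high values in W2 and D4 came from different groups. The ratio of NDUFA4 to NDUFA4L2 was 4.64 to 5.98 in D4, D5, D6, W2 and W4, and 9.20 to 15.7 in W1, W6, W7 and W8. The summed level of 7 pericyte markers, genes of the contractile cells of small vessels, was lowest in W4 (211 CPM) and D6 (291 CPM). It was 396 to 629 CPM in the others. Of the 7 markers, 3 had both libraries below the rest and 0 had both above. PDGFRB alone gave 94.1 CPM in W4 and 144 CPM in D6. ABCC9 (61.3 CPM in W4 and 77.8 CPM in D6) and KCNJ8 (19.3 and 23.4 CPM) were not lowest in these libraries. The part of pericytes in the values of NDUFA4L2 was not tested.

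Complex II, succinate dehydrogenase, is the complex of this chain with no mitochondrially encoded subunit. SDHA, the flavoprotein, ranged from 89.6 to 133 CPM over the 9 libraries. SDHB, the iron-sulfur subunit, measured 43.8, 42.5 and 27.1 CPM in Dorset, 42.8, 30.9 and 19.4 CPM in Han BB and 43.6, 37.5 and 41.5 CPM in Han ++, so that the lowest libraries were W4 and D6. The membrane anchor SDHC measured 64.0, 31.5 and 67.5 CPM, 61.0, 69.1 and 52.6 CPM, and 47.7, 34.4 and 40.8 CPM. The other anchor, SDHD, measured 49.6, 34.4 and 83.6 CPM, 66.3, 67.0 and 83.7 CPM, and 54.1, 47.3 and 55.5 CPM. For both anchors all Han BB animals lay above all Han ++ animals, while the Dorset animals spread over the whole range. SDHD was highest in D6 and W4 where SDHB was lowest, and their ratio was 3.09 and 4.31 there, compared with 0.811 to 2.17 in the other libraries.

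UQCRH, the hinge protein of complex III, measured 279, 137 and 91.4 CPM in Dorset, 188, 188 and 102 CPM in Han BB and 187, 170 and 207 CPM in Han ++. It was highest in D4 and lowest in D6 and W4, and no groups were separated. COX5A, a nuclear subunit of complex IV, measured 5.84, 7.89 and 7.65 CPM, 6.46, 6.23 and 8.43 CPM, and 5.96, 5.02 and 5.07 CPM. The Han BB animals all lay above the Han ++ animals, by 6.23 against 5.96 CPM at the closest.

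In complex V, ATP5A1 and ATP5B encode the alpha and beta subunits of the soluble head. ATP5A1 measured 483, 339 and 864 CPM in Dorset, 475, 479 and 755 CPM in Han BB and 480, 416 and 344 CPM in Han ++. ATP5B measured 362, 236 and 324 CPM, 327, 392 and 250 CPM, and 305, 287 and 327 CPM. The ratio of ATP5A1 to ATP5B was 2.67 in D6 and 3.02 in W4 and lay between 1.05 and 1.57 in the other 7 libraries, so that the partners of the head did not keep one ratio. Of the central stalk, ATP5C1 (gamma) was lowest in D6 (91.0 CPM) and W4 (95.7 CPM), against 120 to 191 CPM in the others, and ATP5D (delta) was also lowest in these libraries.

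The peripheral stalk holds the head in place. ATP5H, its d subunit, measured 87.2, 103 and 354 CPM in Dorset, 109, 112 and 361 CPM in Han BB and 120, 113 and 81.8 CPM in Han ++. D6 and W4 stood far above all others. ATP5F1, the b subunit, measured 116, 84.4 and 220 CPM, 161, 169 and 262 CPM, and 168, 137 and 105 CPM. ATP5O, which links the stalk to the head, measured 86.8, 68.8 and 170 CPM, 136, 131 and 202 CPM, and 115, 104 and 119 CPM. D6 and W4 were again the highest, and for ATP5O every Han BB animal lay above every Han ++ animal. ATP5J, the remaining stalk subunit, measured 104 CPM in D6 and 122 CPM in W4, inside its range of 72.6 to 172 CPM in the other libraries.

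In the membrane part of complex V, the c ring turns as protons pass. ATP5G1 and ATP5G2 encode the same mature c subunit. ATP5G2 measured 260, 116 and 79.4 CPM in Dorset, 279, 247 and 89.3 CPM in Han BB and 206, 125 and 175 CPM in Han ++. ATP5G1 was also lowest in D6 and W4, and the ratio of ATP5G2 to ATP5G1 lay between 6.28 and 14.8. The third gene of this subunit, LOC101108285, which the reference table names ATP5MC3, does not match the rule and measured 24.1 CPM in D6 and 26.8 CPM in W4, against 35.5 to 87.8 CPM in the others. ATP5I, the e subunit, measured 53.8, 23.8 and 8.38 CPM, 54.8, 64.4 and 9.63 CPM, and 43.1, 34.5 and 58.4 CPM. The g subunit, ATP5L, measured 118 and 117 CPM in D6 and W4, within its range of 84.5 to 176 CPM in the rest.

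ATP5S and ATP5SL match the rule by name but are not subunits of the enzyme. ATP5SL, which is known to act in the assembly of complex I, measured 24.8, 23.5 and 30.2 CPM in Dorset, 26.8, 21.9 and 26.6 CPM in Han BB and 19.6, 15.4 and 17.7 CPM in Han ++. The Han ++ animals were below all Dorset and all Han BB animals.

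**Figure D3:**
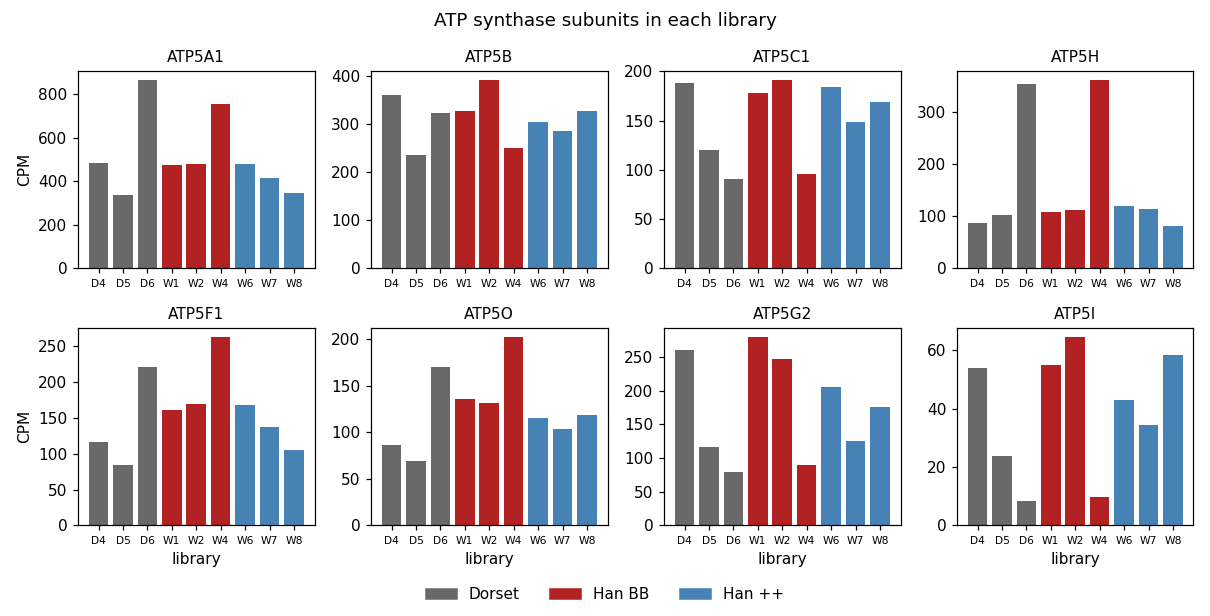
Bars give the CPM of 8 ATP synthase subunits in each of the 9 libraries, on linear axes that start at 0 and differ between genes, with 1 bar per ewe and so no error bar. ATP5A1, ATP5H, ATP5F1 and ATP5O were highest in D6 and W4, while ATP5C1, ATP5G2 and ATP5I were lowest in these libraries.

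Counted over the members, 27 of 58 (46.6%) had D6 and W4 both below the other 7 libraries, while 17.2% of all tested rows did. For 8 members (13.8%), D6 and W4 were both above the others, compared with 18.6% of all tested rows. Among these 8 were NDUFS1.1, SDHD, ATP5A1, ATP5F1, ATP5H, ATP5O and ATP5S. In complex I, 20 of 38 members were below and 2 above, in complex II 1 and 1 of 4, and in complex V 5 and 5 of 14, while UQCRH was below and COX5A neither. By the rule, the counts of complex I hold NDUFA4 and NDUFA4L2, both below. Those of complex V hold ATP5S, above, and ATP5SL, neither, which are not subunits of the enzyme. The median deviation of the complex I members was -0.49 in D6 and -0.54 in W4, whereas that of the complex V members was 0 and 0.042. Within complex V, the peripheral stalk had medians of 0.48 and 0.73, and the c ring of -1.01 and -1.14. The pair D6 and W4 was singled out with earlier results of these data known, so these counts are a description, and no test between complexes was made because members of a complex are not replicates.

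D5 was the other low library. It held the lowest of the 9 values for 17 members, against 18 for W4 and 14 for D6, and the highest for none. D4 and W2 held the highest value for 18 and 19 members. The median fold of D4 over D5, both Dorset, was 1.70, and 34 of 58 members (58.6%) were more than 1.5-fold higher in D4, compared with 30.3% of the tested rows with a read in D5. D4 also differed in that 1 row, LOC101101865, took 14.9% of its reads, against 2.15% in D5. The other libraries had 0.0107% (D6) to 7.69% (W8). D4 had the lowest TMM factor, 0.88. The part of this in the levels of D4 was not tested. The level summed over all members was 5760 CPM in D4 and 5690 CPM in W2, and 3520 CPM in D5. Luteal markers, 6 genes of steroid-making cells of the corpus luteum, moved with this order in part. Their summed level was highest in D4 (1800 CPM) and W2 (1760 CPM), lowest in D5 (329 CPM), W4 (375 CPM) and D6 (530 CPM), and 636 to 1520 CPM in the others. W7 and W1 broke the order, with 1520 and 636 CPM for these markers and 4130 and 5240 CPM for the members. OXT gave 782 CPM in D4, 721 CPM in W2 and 1.89 CPM in D5. STAR was higher in W4 (167 CPM) and W6 (213 CPM) than in D4 (146 CPM). Of the 6 markers, 0 had both D6 and W4 below the other libraries. The part of luteal cells in the level of the members was not tested.

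Other genes of the mitochondrion served for comparison. Of 12 tested genes of the tricarboxylic acid cycle, 2 had D6 and W4 below and 3 above the other libraries, and their median deviation stayed between -0.12 and 0.092 in all 9. Of 25 tested assembly factors of the complexes, 4 were below and 6 above. Of 76 mitochondrial ribosomal protein genes, 26 were below and 13 above, and of 64 cytosolic ribosomal protein genes, 29 were below and 4 above. The cytosolic ribosomal protein genes had their highest median deviations in W1 (0.47), D4 (0.45) and W2 (0.34) and their lowest in D5 (-0.44), D6 (-0.41) and W4 (-0.32), and the complex I members were highest in W2, D4 and W1 and lowest in W4, D6 and D5. None of these genes was called by edgeR in any comparison of the groups. At an unadjusted p under 0.05 in edgeR were 0 of the 12 tricarboxylic acid cycle genes, 2 assembly factors (TMEM126B, higher in Han BB than in Dorset, and TMEM70, lower in Han ++ than in Dorset), 1 mitochondrial ribosomal protein gene (MRPS5, lower in Han ++ than in Dorset) and 4 cytosolic ones (RPL30 and RPS3A, higher in Han BB than in Dorset, RPS3A also higher in Han ++ than in Dorset, and RPS13 and RPS26, higher in Han BB than in Han ++). Among the 13 mitochondrially encoded genes, none was below in both D6 and W4, and 2 were above.

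**Figure D4:**
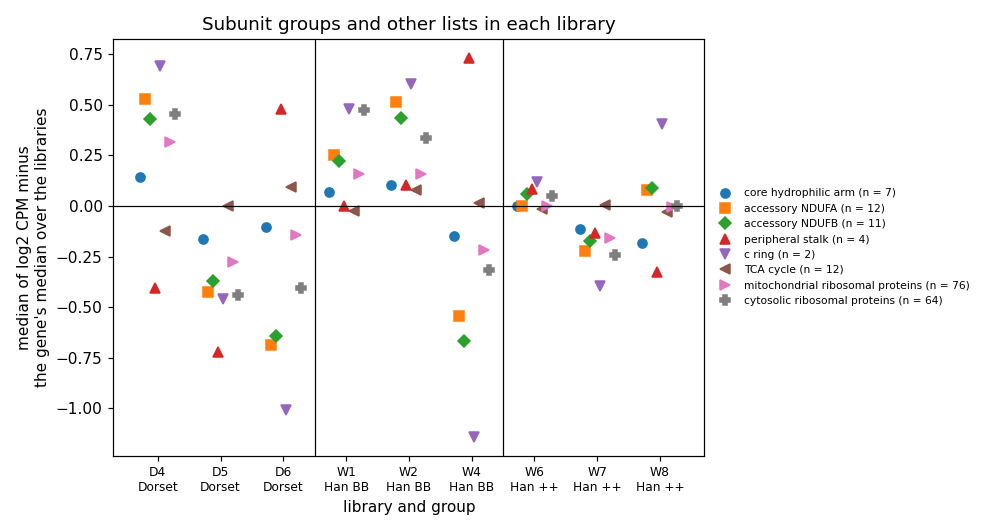
Each symbol is the median, over the genes of a group, of log2 CPM minus the gene's median over the 9 libraries, with the number of genes in the legend. In D6 and W4 the peripheral stalk lay at 0.48 and 0.73, the c ring at -1.01 and -1.14, and the tricarboxylic acid cycle genes near 0.

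The comparison of Han BB with Dorset is one between breeds and, if the Dorset ewes lacked the mutation, also between FecB genotypes. A row was called where it differed more than 1.5-fold in either direction with an adjusted p under 0.05. 0 members and 0% of all tested rows were called by edgeR, and the lowest adjusted p of a member was 0.996 in edgeR. At an unadjusted p under 0.05, 0 members and 4.99% of the tested rows were found by edgeR. DESeq2 called 0 members and 0.244% of its rows, with 0 members and 6.2% of the rows at an unadjusted p under 0.05. limma voom called 0 members and 0% of the rows. It had 9 of 58 members (NDUFA2, NDUFA6, NDUFA4, NDUFB1, NDUFB6, ATP5O, ATP5G2, ATP5I and ATP5L) and 11.5% of the rows at an unadjusted p under 0.05.

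The estimates lay mostly above 0 for Han BB against Dorset. They were positive for 45 members and negative for 13, with a median log2 fold change of 0.13, against -0.0058 over all tested rows. This median was 0.45 without D4, 0.27 without W4, 0.092 without D6, 0.041 without D5 and 0.049 without W2, and that of complex I ranged from -0.013 without W2 to 0.52 without D4. The median SE of a member was 0.35. By complex, the medians were 0.15 for complex I, 0.069 for complex II, -0.084 for UQCRH, -0.021 for COX5A and 0.16 for complex V, where 13 of 14 estimates were positive. The negative one was that of ATP5SL, which is not a subunit. Other lists moved in this comparison too, with positive estimates for 60 of 64 cytosolic ribosomal protein genes (median 0.30) and 6 of 6 markers of ciliated epithelium (median 0.87). Fewer were positive for smooth muscle markers, with 1 of 7 (median -0.53), granulosa markers, with 1 of 6 (median -0.79), and theca markers, with 1 of 4 (median -0.71). None of these granulosa or theca markers was at an unadjusted p under 0.05 in edgeR. At an unadjusted p under 0.05 in edgeR were OVGP1 and TFF3, markers of the oviduct, which were higher in Han BB, and CNN1, DES and SMTN of smooth muscle, which were lower. Of the 4 oviduct markers 3 had positive estimates. PAX8, another of the 4, measured 18, 5.91 and 2.57 CPM in Dorset and 9.21, 5.88 and 3.14 CPM in Han BB. The part of such cells in the estimates of the members was not tested. The SD over the animals of a group of the members' median level was 0.42 for all members. It was 0.50, 0.29, 0.56, 0.20 and 0.20 for complexes I to V. Each SD is larger than the matching median of Han BB against Dorset in the fit of 9 libraries. Such an SD describes single animals and not a difference between group means. ATP5O had the lowest p of the members, with a log2 fold change of 0.53 (95% interval -0.25 to 1.31). NDUFA7 had the smallest estimate, -0.58, and SDHB and NDUFS7 followed with -0.28 and -0.29. 1 member, NDUFV2, did not overlap between the groups and was higher in Han BB, as were 4.27% of the tested rows, and 0 members were lower without overlap, against 4.52% of the rows.

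The comparison of Han ++ with Dorset asks how Han ewes without the mutation differ from Dorset ewes, whose FecB genotype is not given. 0 members and 0.00593% of the tested rows were called by edgeR. ATP5SL was the 1 member at an unadjusted p under 0.05 in edgeR, where 5.27% of the rows were. Its mean was 17.5 ± 2.09 CPM (SD, n = 3) in Han ++ and 26.2 ± 3.55 CPM (SD, n = 3) in Dorset. The log2 fold change was -0.58 (95% interval -1.13 to -0.027) and the adjusted p from edgeR 0.924. ATP5SL was also the 1 member below all Dorset animals, against 5.59% of the rows, and 0 members were above them all, against 5.47%. DESeq2 called 0 members and 0.405% of its rows, with 1 member (ATP5SL) and 6.42% of the rows at an unadjusted p under 0.05. limma voom called 0 members and 0% of the rows, with 1 member (NDUFA4) and 9.78% of the rows at an unadjusted p under 0.05.

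The estimates for Han ++ against Dorset were positive for 29 members and negative for 29, and their median was 0.015, compared with -0.061 over all tested rows. The medians by complex were 0.037 for complex I, -0.11 for complex II, 0.16 for UQCRH, -0.41 for COX5A and 0.026 for complex V. The largest estimates belonged to NDUFA4 (0.94), NDUFB1 (0.67) and ATP5I (0.67), and the smallest to ATP5H (-0.79), ATP5SL (-0.58) and ATP5A1 (-0.44). Among these 6 libraries NDUFA4 was lowest in D5 and D6, and ATP5H was highest in D6. In the same comparison 12 of the 13 mitochondrially encoded genes had positive estimates, with 4 at an unadjusted p under 0.05 (COX3, ATP6, ATP8 and CYTB) and 0 called by edgeR. Estimates were also positive for 6 of 6 ciliated epithelium markers (median 1.27), 4 of 4 oviduct markers (median 0.89) and 2 of 7 smooth muscle markers (median -0.39). Of these, FOXJ1, TPPP3, CAPSL, OVGP1 and TFF3 were at an unadjusted p under 0.05 in edgeR, and 0 were called. The part of such cells in the estimates was not tested.

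The comparison of Han BB with Han ++ asks how the FecB genotypes differ within a breed. 0 members and 0% of the tested rows were called by edgeR, and 0 members were at an unadjusted p under 0.05, against 1.97% of the rows. DESeq2 called 0 members and 0.0081% of its rows, with 0 members and 2.21% of the rows at an unadjusted p under 0.05. limma voom called 0 members and 0.0119% of the rows. It had 5 of 58 members (NDUFA9, NDUFB6, SDHC, ATP5L and ATP5SL) and 7.26% of the rows at an unadjusted p under 0.05. Without overlap, 6 of 58 members were higher in Han BB, compared with 4.78% of the rows, and 0 were lower, compared with 4.59%. Among the 6 were SDHC, SDHD, COX5A, ATP5O and ATP5SL. This direction was not particular to the members. Without overlap, 14 of 64 cytosolic ribosomal protein genes were higher in Han BB and 0 lower, with 57 estimates positive. For the 76 mitochondrial ribosomal protein genes these counts were 9 and 0, with 55 positive. Of the 13 mitochondrially encoded genes 0 were higher and 4 lower, with 3 positive.

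SDHC had a mean of 60.9 ± 8.21 CPM (SD, n = 3) in Han BB and 41.0 ± 6.62 CPM (SD, n = 3) in Han ++. Its log2 fold change was 0.57 with a 95% interval of -0.12 to 1.27. For ATP5SL the log2 fold change was 0.52 with an interval of -0.033 to 1.07. The lowest adjusted p of a member was 0.999 in edgeR. The largest estimates were those of ATP5H (0.88), NDUFA4L2 (0.72) and SDHC, and each of the first pair moved with 1 library. Without W4 the estimate of ATP5H was 0.062, and without W2 that of NDUFA4L2 was -0.37. The smallest were those of NDUFA7 (-0.55), SDHB (-0.40) and NDUFV1 (-0.29). The estimates were positive for 38 members and negative for 20, with a median of 0.11 against 0.035 over all rows. By complex the medians were 0.10 for complex I, 0.28 for complex II, -0.24 for UQCRH, 0.39 for COX5A and 0.29 for complex V.

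The study's lists of differentially expressed genes hold 7 of the members, NDUFA3, ATP5I, ATP5G2, NDUFA13, NDUFA4L2, ATP5J and NDUFB11. They were chosen on these same libraries, so they are no independent evidence of a direction. Which comparison listed each gene, and the share of all genes listed, are not given here. The count therefore says nothing about the members as a set. Their log2 fold changes for Han BB against Dorset lay between -0.12 for NDUFA3 and 0.59 for ATP5I, with intervals from -2.16 to 1.92 and from -0.94 to 2.12. None was called by edgeR, DESeq2 or limma voom in any comparison.

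**Figure D5:**
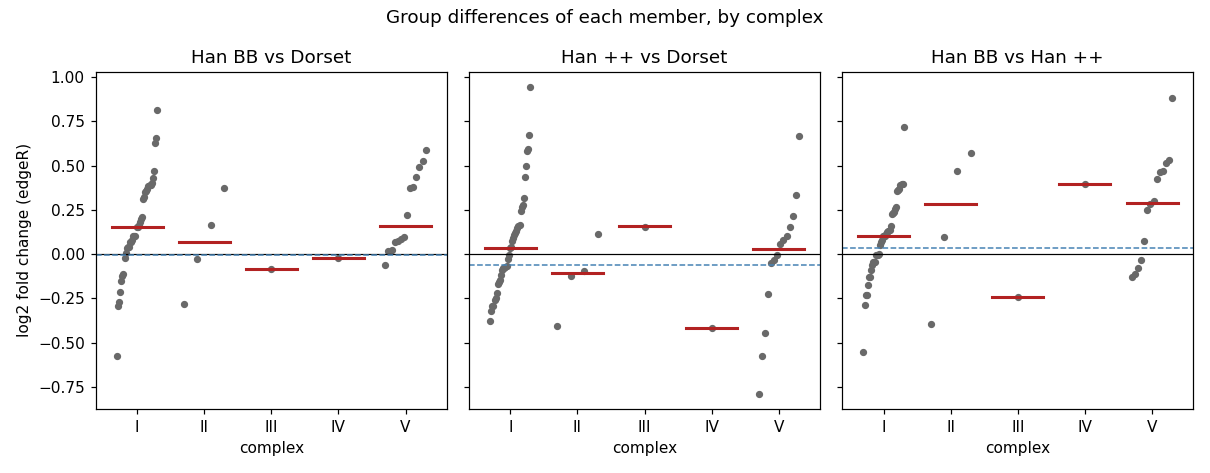
Each point is the log2 fold change of 1 member in edgeR, by complex, for the 3 comparisons. Red lines are medians of a complex, the dashed blue line is the median of all tested rows, and error bars are left out (the median SE was 0.35). Han BB against Dorset has 13 of 14 complex V estimates above 0, and the values of all complexes overlap.

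Without D6 and W4, 7 libraries remained and the pattern of the genotypes was as follows. For Han BB (W1 and W2) against Han ++, 54 of 58 members had positive estimates, with a median log2 fold change of 0.28 (-0.034 over all tested rows). 24 members were higher in both Han BB animals than in all Han ++ animals, where 13.2% of the rows were, and 0 members were lower, where 13.0% of the rows were. In fits of 8 libraries, the count of higher members was 24 without W4 (13.3% of the rows) and 16 without W6 (9.18% of the rows). Without W1 it was 9 (7.06%) with 2 lower (10% of the rows), and without W2 it was 6 (10.2%). The median of the members also depended on W2, and was -0.011 without it, with 28 of 58 estimates positive. In the fit of the 7 libraries, 0 members were at an unadjusted p under 0.05 in edgeR, against 3.41% of the rows, and 0 were called.

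For Han BB against Dorset without D6 and W4, 18 members were higher without overlap and 1 was lower, against 15.9% and 17.4% of the rows. 4 members, NDUFB1, SDHD, ATP5F1 and ATP5O, were at an unadjusted p under 0.05 in edgeR, compared with 7.37% of the rows, and 0 were called. For Han ++ against Dorset, 1 member was higher and 3 were lower without overlap, against 11.1% and 12.0% of the rows, and ATP5O was the 1 member at an unadjusted p under 0.05, compared with 8.87% of the rows. In fits of 8 libraries that kept D6 and W4, this comparison depended on D4 and D5. Without D4, 23 members were higher in Han ++ and 2 lower, against 16.9% and 15.5% of the rows, and the median log2 fold change was 0.31. Without D5, 0 were higher and 8 lower, against 9.54% of the rows in each direction, and the median was -0.16. The median thus had opposite signs without D4 and without D5.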

How the data were processed

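Reads had been aligned by the authors to Oar_v3.1 with TopHat (uniquely mapped reads only), and the deposited values are raw read counts of each gene in each library. Which program counted them, and whether by strand, is not given in the sources used here, and genes with near-identical copies (such as the c subunit genes) or overlapping neighbours are therefore uncertain. The paper's methods and the labels name different Illumina kits.

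The main test was that of edgeR 4.0.16 in R 4.3.3 (quasi-likelihood F-test, 1 fit of 9 libraries, TMM, expression filter by group), and p-values were adjusted by the Benjamini-Hochberg method over all 16871 tested rows. Calls needed a fold change above 1.5 or below 0.667 and an adjusted p under 0.05, as in the study, which used DESeq. DESeq2 1.42.0 and limma 3.58.1 (voom with quality weights) were alternatives. Non-overlap means that all animals of one group lie above those of the other. The code of the edgeR, DESeq2 and limma voom fits was tested on simulated counts, and the other steps were not. These counts had a smaller spread than the data and larger changes than those of the members. The test therefore checks the code and not whether differences of this size could be called here. Plots were made in Python 3.11.15 (matplotlib 3.10.9).

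The members, roles, gene lists and alternatives were chosen with earlier results of these data known. Named members were those with the lowest p per complex, the 3 largest and 3 smallest fold changes per comparison, those in the study's lists, paralogs and catalytic subunits, and others are said to be chosen later. Names of LOC rows came from a RefSeq table of another assembly, with no coordinates used. All replicate pairs differed beyond counting noise (chi-square per degree of freedom 65.6 to 422). The biological coefficient of variation was 0.472. With 3 animals per group, each edgeR p-value set a group difference against a spread estimated over all 3 groups and partly shared between genes. The ranges within the groups differed, so this spread is not that of the compared animals alone. The fold change columns of the study were not used. 1 member of complex I is counted with the others but not reported by name here.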

Additional observations from a re-analysis of the deposited data

How the results depend on the processing

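No member was called under any of the alternatives run. No paired analysis was possible because the animals carry no numbers shared between groups. With limma voom, 9 members for Han BB against Dorset and 5 for Han BB against Han ++ were at an unadjusted p under 0.05 (11.5% and 7.26% of all rows). Its medians for Han BB against Dorset were 0.465 for all members, 0.485 for complex I, 0.348 for complex II and 0.513 for complex V. UQCRH was at 0.283, with the sign changed from edgeR, and COX5A at -0.2. For Han ++ against Dorset the medians were 0.214 for all members, 0.232 for complex I and 0.23 for complex V. In edgeR, the count of members at an unadjusted p under 0.05 for Han ++ against Dorset was 0 without the filter. It was also 0 in a fit of the 2 groups, where Han BB against Han ++ gave 1. Non-overlapping members numbered 2 for Han BB against Dorset with DESeq2 size factors and 2 for Han ++ against Dorset with a filter of 1 CPM in 3 libraries. Without W4 and D6 they numbered 19, 4 and 24 for Han BB against Dorset, Han ++ against Dorset and Han BB against Han ++. Of all rows, 15.9%, 11.1% and 13.2% were then higher without overlap, and 17.4%, 12.0% and 13.0% were lower. In the first comparison 4 members and 7.37% of the rows were at an unadjusted p under 0.05 in edgeR. Placing NDUFA4 and NDUFA4L2 in complex IV, without ATP5S and ATP5SL, moved its median for Han BB against Dorset to 0.401. Leaving out each library in turn, the non-overlapping members numbered 2 to 12, 1 to 25 and 6 to 24 in the same order. The share of all rows higher without overlap ranged from 3.98% to 11.2%, from 5.19% to 16.9% and from 4.49% to 13.3%. The share lower ranged from 4.12% to 13.1%, from 4.78% to 15.5% and from 4.71% to 13.0%. These shares also changed with the number of libraries. Members at an unadjusted p under 0.05 in edgeR numbered 0 to 4, 0 to 2 and 0 to 1. Of all rows, 3.07% to 9.39%, 3.04% to 8.42% and 0.774% to 3.00% were at that threshold. The median of UQCRH ranged from -0.368 to 0.478 for Han BB against Dorset and from -0.134 to 0.715 for Han ++ against Dorset, and that of complex V from 0.125 to 0.380 and from -0.180 to 0.144. The median of complex I ranged from -0.0134 to 0.517, from -0.0925 to 0.419 and from -0.036 to 0.307 for the 3 comparisons in the same order, and that of all members from 0.0407 to 0.451, from -0.161 to 0.306 and from -0.0112 to 0.275. The cause of these shifts was not tested. The sign of a log2 fold change changed in at least 1 of 16 settings for 27 of 54 estimates of the 18 members named by rank. The number of animals limits the precision.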
